A study of Mus musculus with 19 samples.

Results

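Fatty acid and triglyceride synthesis was followed through a list of 32 genes, from the enzymes that supply cytosolic acetyl-CoA and NADPH to the acyltransferases that build triglyceride, in mouse livers shortly after resection. Members were found by gene symbol in the platform annotation, using probe sets with a single symbol and, for each gene, the one with the highest mean over all arrays. Of the 32 members, 31 had such a probe set (Acsl1 had none) and 27 exceeded log2 4 on at least 4 arrays and were tested, among 8515 tested genes of 18193 measured. Each of the 27 exceeded log2 4 on all 19 arrays, so the filter took in no member through 1 group alone. The remaining 4, Scd2, Pnpla3, Lpin3 and Mogat1, stayed below log2 4 on every array.

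RNA came from 19 livers of male C57BL/6 mice aged 10 to 12 weeks, killed 2 h after 85% hepatectomy, with 1 Affymetrix array per liver. There were 5 wild-type mice (WT), 6 mice without Ager, which encodes the receptor RAGE (Ager_null), 4 mice without Myd88, which encodes the adaptor of most Toll-like receptors and of the IL-1 receptor (Myd88_null), and 4 mice without both (Ager_Myd88_null). All mice shared the strain, sex, resection and chow diet. The labels do not give the construct of either deletion or say whether WT mice were littermates, and no liver without resection was analysed here. Hepatocyte markers were over log2 4 on all arrays (9 of 9 measured), whereas 7 of 8 measured kidney and glomerulus markers were below log2 4 on every array, although the RNA extraction protocol mentions glomeruli. Myd88 lay between 5.24 and 6.39 (log2) on the WT and Ager_null arrays and between 2.60 and 3.86 on the arrays without Myd88. Ager was low in every group (2.85 to 3.64), so its level does not check the labels.

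The sample descriptions carry an S number whose meaning is not stated. All 6 Ager_null arrays, WT 5 and Myd88_null 4 lie in S 13 to 20, and all Ager_Myd88_null arrays lie in S 1 to 6 or S 7 to 12, so no S range holds both Ager_null and Ager_Myd88_null. Myd88_null 4 stood apart, its median correlation with the other arrays being 0.965, whereas no other array had less than 0.979. It also had the lowest mean of Kupffer cell and macrophage markers, 6.68 (log2) against 8.01 to 9.22 in WT and Ager_null livers. In whole liver, fewer cells of a type and less RNA per cell cannot be told apart.

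Hepatocytes make fatty acids from citrate that leaves the mitochondria: ATP citrate lyase cleaves it to acetyl-CoA, acetyl-CoA carboxylases convert that to malonyl-CoA, and fatty acid synthase builds palmitate, which elongases and desaturases then modify. Acyl-CoA is esterified to glycerol 3-phosphate, the lipins remove phosphate from phosphatidate to give diacylglycerol, and DGAT enzymes add the last acyl chain. SREBP-1c (from Srebf1) and ChREBP (from Mlxipl) are the transcription factors best known for driving these genes in response to insulin and carbohydrate. After partial hepatectomy the remnant liver takes up fatty acids from adipose tissue and accumulates fat for a time, a background against which the expression of its own synthetic genes is read.

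Promoter windows of 300 bases (250 before to 50 after the annotated gene start) were taken from RefSeq tables of the build GRCm38.p6, which held 38 windows for 27 of the 32 members. The windows of 3 members are shown because Lpin1 was the member that passed the test, while Fasn and Acly, enzymes of the cytosolic route to palmitate, passed in Myd88_null against WT only with Myd88_null 1 left out or with array weights. Capitals mark matches, on either strand, to an E-box (CACGTG), an SRE core (TCACNCCAC), an inverted CCAAT box (ATTGG), a GC box (GGGCGG) or a glucocorticoid response element. The Lpin1 window lies at chr12:16610917-16611216, the Fasn window at chr11:120824498-120824797 and the Acly window at chr11:100527951-100528250. All are on the minus strand and written 5′ to 3′ along the gene.
Lpin1: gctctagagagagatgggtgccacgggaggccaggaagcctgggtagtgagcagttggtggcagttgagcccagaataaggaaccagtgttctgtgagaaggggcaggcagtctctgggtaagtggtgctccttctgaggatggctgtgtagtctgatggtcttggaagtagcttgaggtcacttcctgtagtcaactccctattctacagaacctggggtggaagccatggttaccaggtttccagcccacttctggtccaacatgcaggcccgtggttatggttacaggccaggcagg
Fasn: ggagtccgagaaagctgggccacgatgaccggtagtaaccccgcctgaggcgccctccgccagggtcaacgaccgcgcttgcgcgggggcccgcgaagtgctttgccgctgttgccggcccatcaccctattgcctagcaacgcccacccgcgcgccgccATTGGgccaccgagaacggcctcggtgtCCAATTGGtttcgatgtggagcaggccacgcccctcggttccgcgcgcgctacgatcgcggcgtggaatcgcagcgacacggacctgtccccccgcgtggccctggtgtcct
Acly: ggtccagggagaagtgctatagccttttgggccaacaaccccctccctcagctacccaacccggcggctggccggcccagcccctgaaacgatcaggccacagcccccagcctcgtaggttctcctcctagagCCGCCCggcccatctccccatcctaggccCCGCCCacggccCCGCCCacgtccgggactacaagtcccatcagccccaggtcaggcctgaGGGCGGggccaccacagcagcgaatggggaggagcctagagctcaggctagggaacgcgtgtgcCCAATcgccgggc
The Lpin1 window held none of these 5 motifs. In the Fasn window there were 3 CCAAT box matches, 2 of them overlapping, and the Acly window had 4 GC boxes and 1 CCAAT box. Among the 38 windows, 19 held an inverted CCAAT box against 37.4% of all 32851 windows, and 52.6% held a GC box against 35.7%. An E-box was present in 13.2% against 7.15%, with matches in Slc25a1, Elovl5, Lpin2, Lpin3 and Mlxipl. SRE cores were found in 5.26% against 1.24% (Acsl1 and Mlxipl), and glucocorticoid response elements in 0 of 38 windows against 0.475% of all windows. These matches describe letters only.

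Lpin1, which encodes the phosphatidate phosphatase lipin 1 that makes diacylglycerol and also acts as a transcriptional coactivator, was the single tested member that passed in any comparison. Its log2 levels were 12.12, 11.91, 12.74, 12.44 and 11.80 in WT 1 to 5. In Ager_null they ran from 12.59 to 13.18 with a median of 12.90. The Myd88_null livers had 11.82, 12.64, 12.73 and 13.07. In Ager_Myd88_null livers 1 to 4 the levels were 12.28, 11.93, 11.75 and 12.09. All 6 Ager_null livers were therefore above all 4 Ager_Myd88_null livers, while the WT and Myd88_null ranges overlapped both.

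Lpin1 was 1.86-fold lower in Ager_Myd88_null than in Ager_null (log2 difference -0.90 ± 0.21, SE; limma adjusted p = 0.0409). In that comparison 2.44% of all tested genes were called, against 1 of 27 members. Lpin1 also passed for the interaction, the difference between Ager_Myd88_null and Ager_null minus that between Myd88_null and WT, at -1.26 ± 0.31 (adjusted p = 0.0444). There 2.41% of all tested genes were called, so that 1 of 27 members was near the background in both comparisons. Ager_null against WT gave 0.71 ± 0.20 with an adjusted p of 0.0711, and Ager_Myd88_null against WT gave -0.19 ± 0.22 (adjusted p = 0.86).

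A second Lpin1 probe set had nearly the same group means, 12.17 in WT, 12.89 in Ager_null, 12.51 in Myd88_null and 11.94 in Ager_Myd88_null. Blocking on the S range gave a Lpin1 difference between Ager_Myd88_null and Ager_null of -0.85 (adjusted p = 0.253) and an interaction of -1.25 (adjusted p = 0.225), and no gene at all passed for the interaction. Within S 13 to 20 the 6 Ager_null arrays exceeded the single WT array by 1.11 and differed by -0.16 from the single Myd88_null array. Ager_Myd88_null differed from WT by 0.09 in the arrays of S 1 to 6, and by -0.67 in those of S 7 to 12. Leaving out 1 array at a time kept the sign of both Lpin1 values in all 19 fits, but the call was lost in 11 of 19 fits for the difference and in 14 of 19 for the interaction. With the replicate number as a block the interaction was -1.22 (adjusted p = 0.0612), and without a filter on low values it was -1.26 (adjusted p = 0.0654). Without Myd88_null 4 the interaction was -1.09 (adjusted p = 0.0975) and the difference kept its call (-0.90, adjusted p = 0.0288). Since no S range holds both Ager_null and Ager_Myd88_null arrays, within a range genotype and S range cannot be told apart in the difference between them. The blocked fit links the ranges only through WT and Myd88_null arrays, with a single one of each in S 13 to 20. It also takes the S range shift to be alike in all genotypes.

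**Figure D1:**
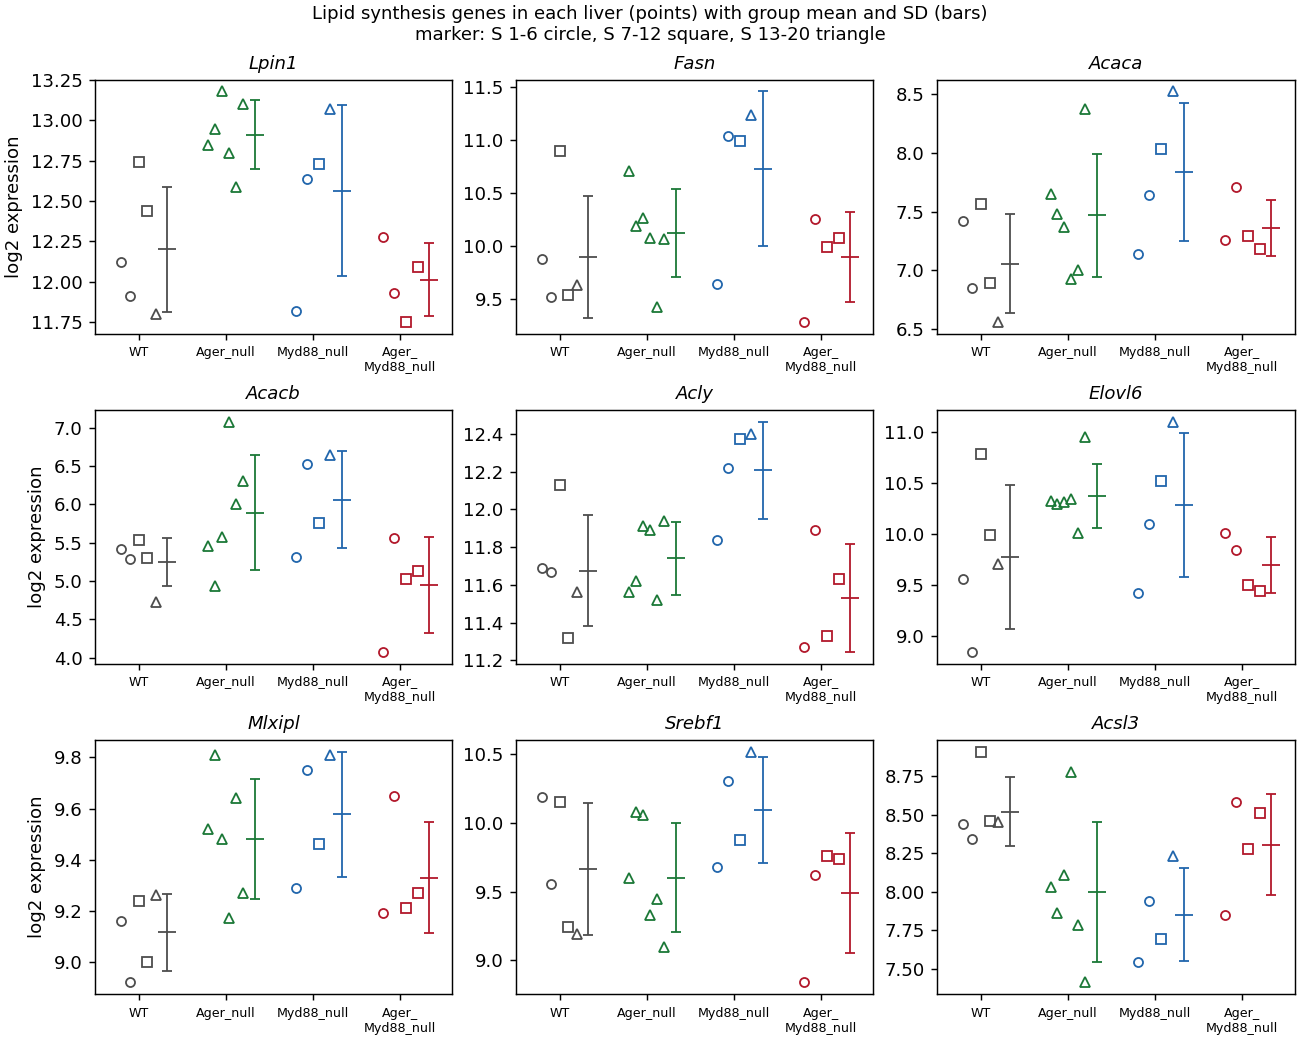
Log2 expression (y axis) of 9 members in each of 19 livers by genotype (x axis); points are livers, marker shapes give the S range, and bars give the group mean with SD. All 6 Ager_null livers (12.59 to 13.18) lie above all 4 Ager_Myd88_null livers (11.75 to 12.28) for Lpin1, and Myd88_null 1 lies below the other Myd88_null livers for Fasn (9.64 against 10.99 to 11.23).

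The enzymes of palmitate synthesis, and Acacb, had higher means in Myd88_null than in WT, but none passed the test. Fasn, fatty acid synthase, had log2 levels of 9.88, 9.52, 10.89, 9.54 and 9.63 in WT 1 to 5. Its Ager_null levels ran from 9.42 to 10.71 with a median of 10.13. In Myd88_null livers 1 to 4 they were 9.64, 11.04, 10.99 and 11.23. The Ager_Myd88_null livers had 9.28, 10.25, 9.99 and 10.07. Thus 3 of 4 Myd88_null livers stood above every liver of the other groups, and the fourth, Myd88_null 1, lay among the WT livers.

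The Fasn difference between Myd88_null and WT was 0.84 ± 0.33 (adjusted p = 0.189). Acaca, the acetyl-CoA carboxylase that supplies malonyl-CoA for synthesis, differed by 0.77 ± 0.29 (adjusted p = 0.168). For Acacb, the isoform whose malonyl-CoA restrains mitochondrial fatty acid import, the difference was 0.81 ± 0.38 (adjusted p = 0.249). Acly, ATP citrate lyase, had a difference of 0.53 ± 0.17 (adjusted p = 0.118). In all 4 cases the ranges of the Myd88_null and WT livers overlapped.

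Acaca levels were 7.42, 6.85, 7.56, 6.89 and 6.56 in WT 1 to 5 and 7.14, 7.64, 8.03 and 8.52 in Myd88_null 1 to 4. For Acly, WT livers had 11.69, 11.67, 12.13, 11.32 and 11.56, and Myd88_null livers 11.84, 12.22, 12.37 and 12.40. In both genes Myd88_null 4 was the highest of the 4 Myd88_null livers and Myd88_null 1 the lowest. Acacb was the member with the widest spread, with a pooled SD within groups of 0.61. It ran from 4.72 to 5.53 in WT and from 4.93 to 7.08 in Ager_null. Its levels were 5.31, 6.52, 5.76 and 6.65 in Myd88_null livers and 4.07, 5.56, 5.03 and 5.13 in Ager_Myd88_null livers. The group ranges of Acacb overlapped in every comparison.

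Values for these enzymes depended on single Myd88_null livers. Without Myd88_null 1, the difference from WT was 1.20 for Fasn (adjusted p = 0.0235), 1.01 for Acaca (adjusted p = 0.0392), 0.65 for Acly (adjusted p = 0.0264) and 0.56 for Mlxipl (adjusted p = 0.0291), all of which then passed. Acaca passed there at an unadjusted limma p of 0.00335, so more than the main fit's 0.399% of all tested genes passed. The exact share in that fit was not worked out. Without Myd88_null 4 the same differences were 0.67 for Fasn (adjusted p = 0.53), 0.55 for Acaca (adjusted p = 0.535) and 0.46 for Acly (adjusted p = 0.362). The Fasn difference was 0.65 in the lowest S range, 0.78 in the middle one and 1.60 in the highest, each from 1 or 2 arrays per group. For Acly the corresponding values were 0.35, 0.64 and 0.84.

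Of the 27 tested members, 0 passed for Myd88_null against WT, where 0.399% of all tested genes did. At an unadjusted p under 0.05 there were 8 members (29.6%), 7 of them higher, against 19.6% of all tested genes. The 7 were Acly, Slc25a1, Acaca, Acacb, Fasn, Fads1 and Mlxipl, and the lower one was Acsl3. Over the 27 members 22 were higher and 5 lower, with a median of 0.23, while 59.2% of all tested genes were higher, with a median of 0.06. Centring each array on its median moved all genes by -0.12 in this comparison and left 16 members higher and 11 lower, with a median of 0.11 against -0.05 for all genes. Without Myd88_null 4, 21 members were higher, the median was 0.12, and 3 members had an unadjusted p under 0.05. Kupffer cell and macrophage markers were lower in 11 of 12 cases in the same comparison, with a median of -0.71, 0 called and 2 at an unadjusted p under 0.05, and their array means ran from 6.68 to 8.73 in Myd88_null and from 8.22 to 9.22 in WT. Their part in the member values was not tested.

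The other genes of precursor supply differed less. Slc25a1, the mitochondrial citrate carrier, was 0.24 ± 0.11 higher in Myd88_null than in WT on the log2 scale (adjusted p = 0.228), and here the groups did not overlap. Me1, the malic enzyme that yields NADPH, gave -0.33 ± 0.23 in Ager_null and 0.19 ± 0.25 in Myd88_null, each against WT. Its Ager_null levels were 10.64, 10.52 and 10.35 in livers 1 to 3 and 11.53, 11.44 and 11.49 in livers 4 to 6. WT livers ran from 11.11 to 11.46. Acss2, which makes acetyl-CoA from acetate, gave -0.20 ± 0.23 and 0.02 ± 0.26 in those comparisons. None of these passed.

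Among the elongases, Elovl6, which extends palmitate to stearate, and Elovl1, which makes very long chains, had the larger differences. Elovl6 levels were 9.56, 8.84, 10.78, 9.99 and 9.70 in WT livers and ran from 10.01 to 10.95 with a median of 10.31 in Ager_null. In Myd88_null they were 9.42, 10.10, 10.52 and 11.10, and in Ager_Myd88_null 10.01, 9.84, 9.50 and 9.44. WT thus overlapped all other groups, and Ager_null livers lay at or above the highest Ager_Myd88_null liver. For Elovl6 the log2 difference between Ager_Myd88_null and Ager_null was -0.67 ± 0.32 (adjusted p = 0.215), and -0.23 when blocked on the S range. A second Elovl6 probe set gave -1.03 for the difference without the block.

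Elovl1 levels in Ager_null ran from 8.89 to 9.77 with a median of 9.37. They were 8.88, 8.69, 8.96 and 8.65 in Myd88_null livers, so only Ager_null 6 fell inside the Myd88_null range. The Elovl1 difference between Ager_null and Myd88_null was 0.56 ± 0.16 (adjusted p = 0.0837). It passed without Ager_null 6 (0.65, adjusted p = 0.0282), with median centring (0.64, adjusted p = 0.0434) and with array weights (0.65, adjusted p = 0.0124). It also passed when blocked on the S range (0.77, adjusted p = 0.0484). In that fit 386 of 8515 tested genes passed, against 107 without the block. The unadjusted limma p of Elovl1 was 0.00209 with the block and 0.00243 without it. The S range of the Ager_null arrays holds a single Myd88_null array, which stood apart from the other arrays. No member passed for this comparison in 18 of 19 fits that left out 1 array, or in 8 other settings. Among those 8, the replicate number as a block gave 0.65 for Elovl1 (adjusted p = 0.0617). Elovl2 and Elovl5, elongases of polyunsaturated chains, differed from WT by at most 0.15 in any group.

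The desaturases differed little. Scd1, which makes oleate and palmitoleate, gave log2 differences from WT of -0.10 ± 0.15 in Ager_null, 0.26 ± 0.17 in Myd88_null and 0.04 ± 0.17 in Ager_Myd88_null. Fads2, the first desaturase of the polyunsaturated route, ran from 11.02 to 11.45 in Ager_null and was 10.86, 10.92, 10.73 and 10.82 in Ager_Myd88_null. Those 2 groups did not overlap, with a difference of -0.33 ± 0.12 (adjusted p = 0.118). Fads1, the desaturase that follows it, was 0.26 ± 0.11 higher in Myd88_null than in WT (adjusted p = 0.204).

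Acsl3, an acyl-CoA synthetase of the endoplasmic reticulum and lipid droplets, ran opposite to most members. Its levels were 8.44, 8.34, 8.91, 8.46 and 8.45 in WT and ran from 7.41 to 8.78 with a median of 7.95 in Ager_null. Myd88_null livers had 7.54, 7.94, 7.69 and 8.23, and Ager_Myd88_null livers 7.85, 8.58, 8.28 and 8.51. All Myd88_null livers were below all WT livers, with a log2 difference of -0.67 ± 0.22 (adjusted p = 0.13). A second Acsl3 probe set gave -1.13 for the same comparison, from a level nearer background. Acsl4, which prefers arachidonate, and Acsl5, which is abundant in liver, differed from WT by at most 0.23 in any group. The Acsl4 probe sets disagreed in sign for most comparisons.

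**Figure D2:**
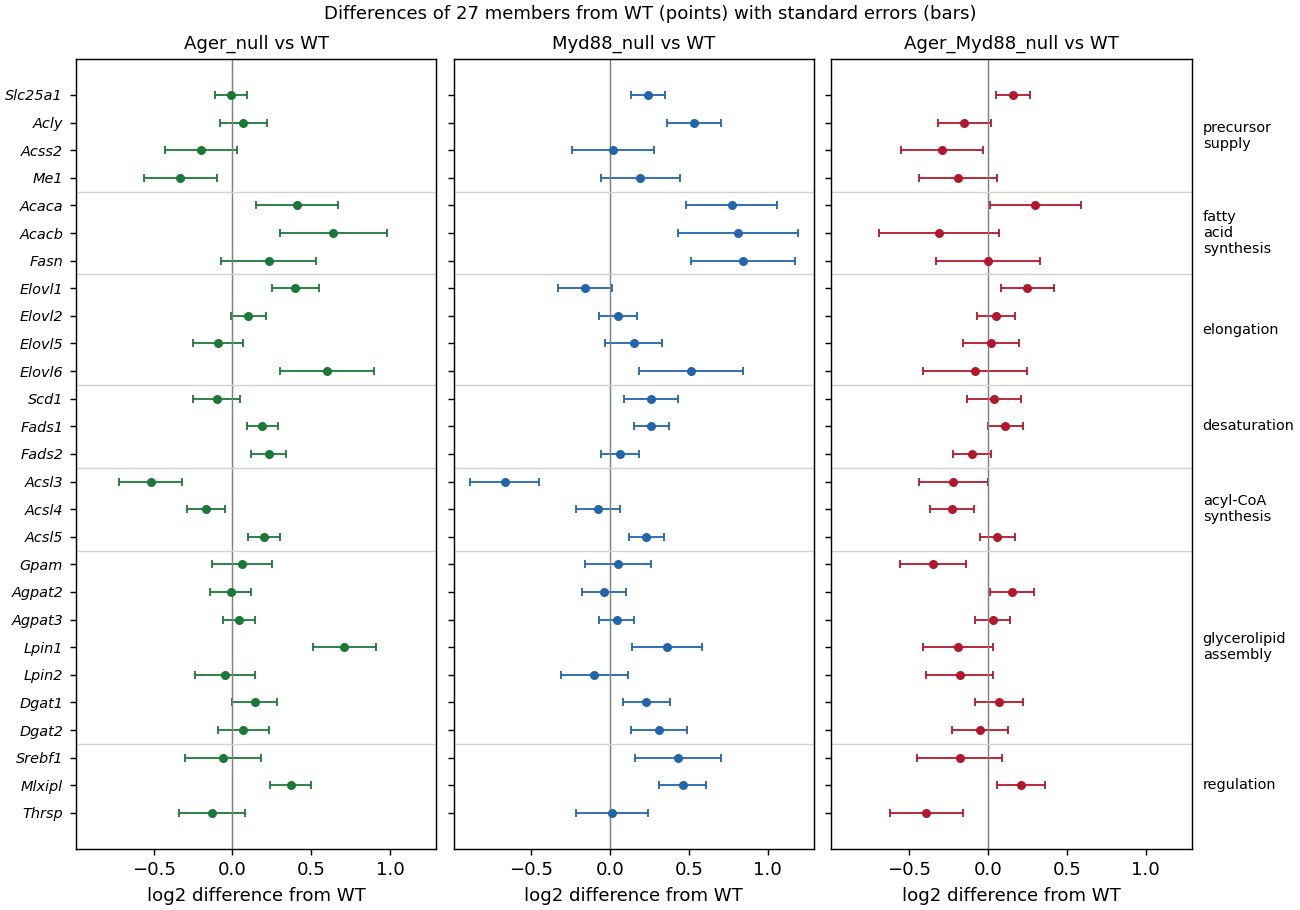
Log2 difference from WT (x axis) of 27 members (y axis, grouped by role) in Ager_null, Myd88_null and Ager_Myd88_null; points are estimates and bars standard errors. Acaca, Acacb and Fasn, grouped as fatty acid synthesis, lie between 0.77 and 0.84 in Myd88_null and between -0.31 and 0.30 in Ager_Myd88_null. No point in these panels passed the test.

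Apart from Lpin1, no gene of glycerolipid assembly passed. Gpam, the mitochondrial acyltransferase that starts glycerolipid synthesis, was 11.09, 11.30, 11.02 and 10.82 in Ager_Myd88_null and ran from 11.22 to 11.68 in Ager_null, with a difference of -0.40 ± 0.20 (adjusted p = 0.248). A second Gpam probe set gave -0.98 for that difference. In Myd88_null against WT the second probe set gave -0.31 and the one used 0.05. Dgat2, the diacylglycerol acyltransferase tied to newly made fatty acids, gave 0.31 ± 0.18 in Myd88_null against WT (adjusted p = 0.346). Dgat1, the other enzyme of that step, gave 0.23 ± 0.15 (adjusted p = 0.41). Agpat2 and Agpat3, which acylate lysophosphatidate, and Lpin2, a second lipin, differed from WT by at most 0.18 in any group. For Agpat3 the probe set used gave 0.04 in Myd88_null against WT, while its other probe sets gave 0.36 to 0.55. The 4 members below the filter had group means of 3.13 to 3.31 (Scd2), 2.90 to 3.01 (Lpin3), 2.33 to 3.09 (Mogat1) and 2.26 to 2.43 (Pnpla3, a lipid hydrolase known as an SREBP-1c target).

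Of the regulators, Srebf1 levels were 10.19, 9.56, 10.15, 9.24 and 9.19 in WT and ran from 9.10 to 10.08 with a median of 9.52 in Ager_null. They were 9.68, 10.31, 9.88 and 10.52 in Myd88_null and 8.84, 9.62, 9.76 and 9.74 in Ager_Myd88_null. The ranges overlapped between all groups, and the log2 difference between Myd88_null and WT was 0.43 ± 0.27 (adjusted p = 0.377). Mlxipl was 9.16, 8.92, 9.24, 9.0 and 9.26 in WT, against 9.29, 9.75, 9.46 and 9.81 in Myd88_null. Those ranges did not overlap, with a difference of 0.46 ± 0.15 (adjusted p = 0.117). Mlxipl in Ager_null exceeded WT by 0.37 ± 0.13 (adjusted p = 0.127). Thrsp, the lipogenic protein Spot 14, was lowest in Ager_Myd88_null (-0.39 ± 0.23 against WT, adjusted p = 0.691).

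The 3 comparisons with WT share the WT livers. For Ager_null against WT, 0 of 27 members passed, where 1.26% of all tested genes did. Lpin1, Elovl1 and Mlxipl (higher) and Acsl3 (lower) had an unadjusted p under 0.05, which is 14.8% of members against 21.6% of all tested genes. There were 16 members higher and 11 lower, with a median of 0.07 against 0.02 for all genes. In this comparison the share of members with a small p was below the background.

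For Ager_Myd88_null against WT, 0 members passed, with 0.317% of all tested genes called, and 0 members had an unadjusted p under 0.05 against 8.57% of all tested genes. The 27 differences ran from -0.39 to 0.30 with standard errors of 0.11 to 0.38, 13 higher and 14 lower, while 64.1% of all tested genes were higher. With median centring 6 were higher and 21 lower. A Fasn difference of 0.00 ± 0.33 leaves room for changes of either sign, so these values do not show that WT and Ager_Myd88_null livers were alike.

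The comparisons of Ager_Myd88_null with each single deletion share the Ager_Myd88_null livers, so their values are given separately. Against Ager_null, 21 of 27 were lower, with a median of -0.11, while 43.7% of all tested genes were lower. Lpin1, Acacb, Elovl6 and Fads2 had an unadjusted p under 0.05 (14.8% of members against 22.7% of all tested genes). With the S range as a block 14 of 27 were lower and the median was -0.06. Against Myd88_null, 24 of 27 were lower, with a median of -0.22, while 50.2% of all tested genes were lower. Here 0 members passed and 0.153% of all tested genes did. The 6 members with an unadjusted p under 0.05 (22.2% against 16.1% of all tested genes) were Acly, Acacb, Fasn, Lpin1 and Srebf1, all lower, and Elovl1, which was higher. Without Myd88_null 1 the differences of Acly (-0.80, adjusted p = 0.0277), Fasn (-1.19, adjusted p = 0.0413) and Lpin1 (-0.80, adjusted p = 0.0395) passed, and without Myd88_null 4 none did. Without Myd88_null 1, Fasn passed at an unadjusted limma p of 0.0015, so more than 0.153% of all tested genes passed in that fit. The exact share was not worked out.

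Between the single deletions, 0 members passed, with 1.26% of all tested genes called. Acly, Me1, Scd1 and Slc25a1 were lower and Elovl1 was higher in Ager_null than in Myd88_null at an unadjusted p under 0.05, which is 18.5% of members against 15.9% of all tested genes. The highest group mean was in Myd88_null for 17 of 27 members (63.0%) against 32.2% of all tested genes. The lowest was in Ager_Myd88_null for 12 members (44.4%) against 17.6%. These shares are descriptions, and neighbouring group means mostly differed by less than the spread within groups.

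The interaction was negative for 23 of 27 members, with a median of -0.30, against 51.7% of all tested genes and a median of -0.02. Besides Lpin1, the estimates furthest from 0 were Acacb at -1.75 ± 0.52 (adjusted p = 0.0646), Elovl6 at -1.18 ± 0.46 (adjusted p = 0.119), Fasn at -1.06 ± 0.46 (adjusted p = 0.156) and, with the opposite sign, Acsl3 at 0.98 ± 0.31 (adjusted p = 0.0725). At an unadjusted p under 0.05 there were 11 members (40.7%) against 27.2% of all tested genes, 10 of them negative. Centring each array on its median left 19 of 27 negative, with a median of -0.24. With the S range as a block 20 of 27 were negative, the median was -0.22, and 3 members had an unadjusted p under 0.05. Leaving out Myd88_null 1 gave 7 members that passed (Acacb, Acly, Acsl5, Elovl6, Fasn, Lpin1 and Mlxipl), and leaving out Myd88_null 4 gave 0. Without Myd88_null 1, Acsl5 passed at an unadjusted limma p of 0.00857 (adjusted p = 0.0454). More than the main fit's 2.41% of all tested genes must therefore have passed in that fit. The exact share was not worked out, so the 7 are not set against a background. The Kupffer cell and macrophage markers had positive interactions in 12 of 12 cases, with a median of 0.89 and 0 called, and their part in the member values was not tested.

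**Figure D3:**
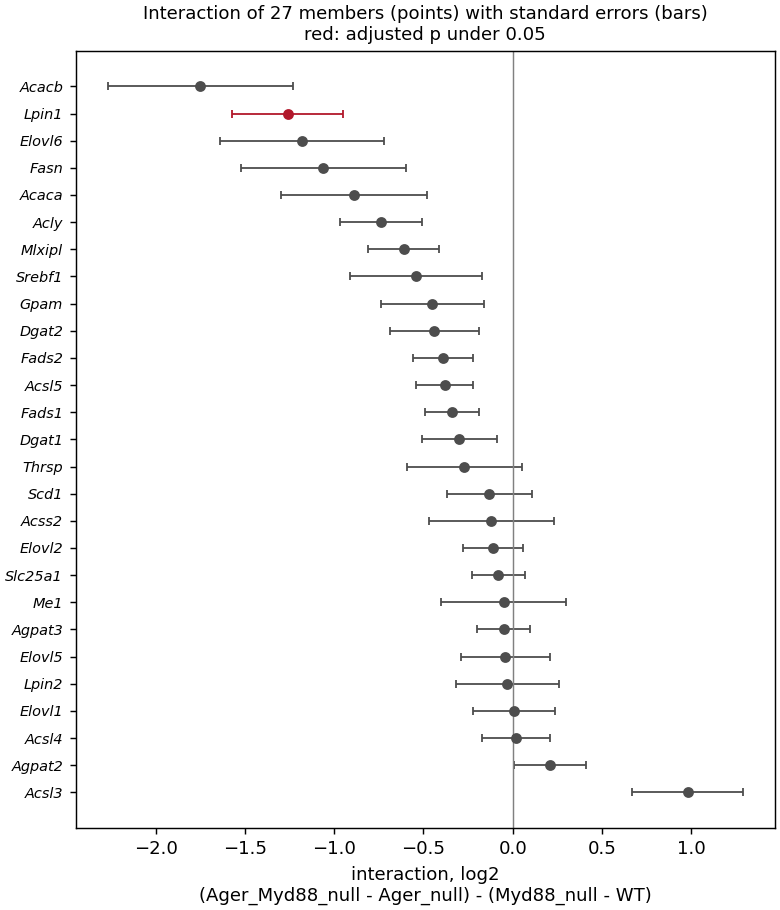
Interaction (x axis, log2), the difference between Ager_Myd88_null and Ager_null minus that between Myd88_null and WT, for 27 members (y axis, ordered by estimate); points are estimates, bars standard errors. Of the 27 estimates 23 are below 0, Lpin1 (-1.26, red) is the one that passed, and Acsl3 (0.98) lies furthest above 0.

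Livers of 1 genotype also differed from each other. The pooled SD within groups was 0.61 for Acacb, 0.54 for Fasn, 0.53 for Elovl6, 0.47 for Acaca and 0.43 for Srebf1, against 0.14 for Agpat3, Slc25a1 and Fads1. The median over members was 0.28 and that over all tested genes 0.27. Whether livers with more Srebf1 than others of their genotype also had more of the other members was asked over the 19 arrays, using deviations from the group means and permutation within groups (100000 resamples, two-sided, adjusted over 26 members).

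Fasn followed Srebf1 with r = 0.65 (permutation p = 0.0043, adjusted 0.045) and rho = 0.61 (permutation p = 0.0076, adjusted 0.081). Dgat2 gave r = 0.59 (permutation p = 0.0051, adjusted 0.045) and rho = 0.58 (permutation p = 0.0093, adjusted 0.081). Elovl2 ran the other way, with r = -0.66 (permutation p = 0.0026, adjusted 0.045) and rho = -0.70 (permutation p = 0.0014, adjusted 0.035). Without the 2 arrays farthest from the median of Srebf1 (Myd88_null 4 and Ager_Myd88_null 1) r was 0.58 for Fasn, 0.54 for Dgat2 and -0.61 for Elovl2. With S range means removed as well, r was 0.72, 0.74 and -0.72. Thrsp (r = 0.60, permutation p = 0.0095) missed at an adjusted value of 0.062, and its rho was 0.48 (permutation p = 0.044, adjusted 0.16).

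Over the 26 members r was above 0 for 21 (80.8%), with a median of 0.32, whereas it was above 0 for 58.7% of the 8514 tested genes other than Srebf1, these members included, with a median of 0.07. Scd1 (r = 0.02) and Elovl6 (r = 0.13), both long known as SREBP-1c targets, showed little relation to Srebf1 among these livers, and Lpin1 gave 0.33 (permutation p = 0.21, adjusted 0.36) with a rho of 0.21 (permutation p = 0.45, adjusted 0.61). All values of an array share its hybridisation and scale.

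**Figure D4:**
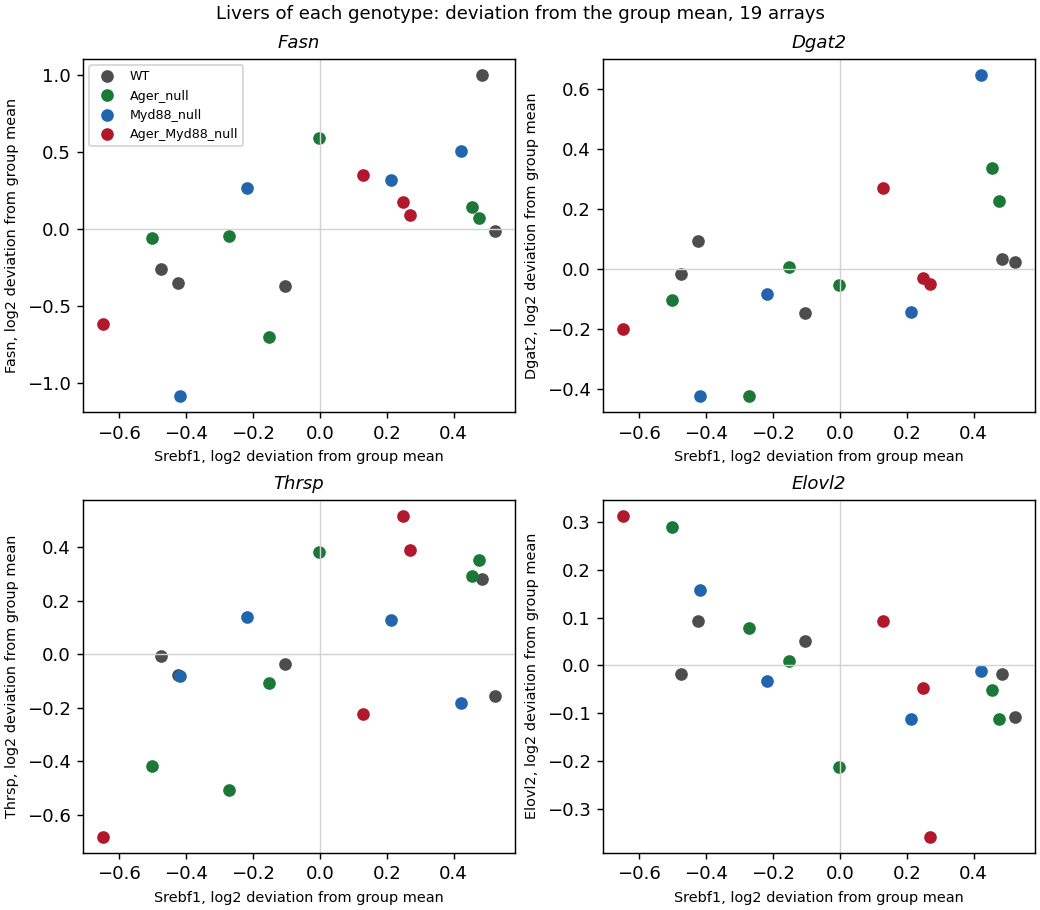
Log2 deviation from the group mean of Fasn, Dgat2, Thrsp and Elovl2 (y axes) against that of Srebf1 (x axes) in 19 livers, coloured by genotype. Fasn (r = 0.65), Dgat2 (r = 0.59) and Thrsp (r = 0.60) are higher in livers with more Srebf1, and Elovl2 (r = -0.66) is lower.

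A list of 39 other genes of acyl chain and glycerolipid synthesis had 22 tested genes, of which Hacd2 alone passed. Of all tested genes 1.26% passed for Ager_null against WT and 1.26% for Ager_null against Myd88_null. The shares were 2.44% for Ager_Myd88_null against Ager_null and 2.41% for the interaction. Hacd2, a 3-hydroxyacyl-CoA dehydratase that acts in the same elongation cycle as the ELOVL enzymes, ran from 10.84 to 11.24 in WT, 10.34 to 10.79 in Ager_null, 10.89 to 11.21 in Myd88_null and 11.19 to 11.26 in Ager_Myd88_null. Every Ager_null liver was below every liver of the other 3 groups. It was lower in Ager_null than in WT (-0.49 ± 0.10, adjusted p = 0.0264) and than in Myd88_null (-0.48 ± 0.10, adjusted p = 0.0302). It was higher in Ager_Myd88_null than in Ager_null (0.68 ± 0.10, adjusted p = 0.00406), and the interaction was 0.69 ± 0.15 (adjusted p = 0.0347). With the S range as a block the difference between Ager_Myd88_null and Ager_null passed (0.72, adjusted p = 0.0381). The differences of Ager_null from WT (-0.53, adjusted p = 0.0821) and from Myd88_null (-0.49, adjusted p = 0.0535) and the interaction (0.76, adjusted p = 0.142) did not. With 1 array left out at a time, these 3 calls were lost in 4, 6 and 8 of 19 fits. The call for Ager_Myd88_null against Ager_null was kept in all 19. No S range holds both Ager_null and Ager_Myd88_null arrays, so within a range genotype and S range cannot be told apart in the difference between them. The blocked fit links the ranges only through WT and Myd88_null arrays, and the Ager_null range holds a single one of each. It also takes the S range shift to be alike in all genotypes.

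Of 36 other regulators 34 were tested, and 2 passed, both with a negative interaction, where 2.41% of all tested genes passed. Irs2, an insulin receptor substrate through which insulin acts on the liver, had group means of 6.09 ± 0.55 (SD, n = 5) in WT and 7.01 ± 0.40 (n = 6) in Ager_null. In Myd88_null its mean was 7.39 ± 0.86 (n = 4) and in Ager_Myd88_null 5.48 ± 1.02 (n = 4), with an interaction of -2.82 ± 0.60 (adjusted p = 0.0347). Rxra, the partner of LXR and of other nuclear receptors, had means of 9.86, 10.39, 10.59 and 10.04 in the same order and an interaction of -1.08 ± 0.25 (adjusted p = 0.0366). With the S range as a block the interactions were -2.53 (adjusted p = 0.234) for Irs2 and -0.72 (adjusted p = 0.363) for Rxra. Leaving out 1 array at a time lost the call in 8 of 19 fits for Irs2 and in 9 of 19 for Rxra.

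Other regulators of interest did not pass in any of the 7 comparisons. Insig1, which retains SREBP in the endoplasmic reticulum and is itself an SREBP target, had means of 11.16 in WT and 10.89 to 11.03 in the other groups. Insig2 ranged from 12.29 to 12.90 and Nr1h3, which encodes LXRα, from 8.47 to 8.91 in group means. Pklr, liver pyruvate kinase and a ChREBP target, had 8.24 ± 0.53 in WT and 9.09 ± 0.98 in Myd88_null (SD; log2 difference 0.86 ± 0.37, SE; adjusted p = 0.225). Nr1h2 had no probe set with a single symbol.

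Of 6 measured adipocyte markers, the 3 that define the cell type most closely, Adipoq, Lep and Retn, were below log2 4 on all arrays, at 1.71 to 2.69. Fabp4, a fatty acid binding protein that macrophages and endothelium also express, was over log2 4 on all arrays, with group means of 8.91 to 9.38. Cidea exceeded log2 4 in 2 of 4 Myd88_null livers (highest 4.30) and Lipe, hormone-sensitive lipase, in 4 of 6 Ager_null and 2 of 4 Myd88_null livers (highest 4.48). The mean of the list ran from 3.50 to 3.96 over all arrays, with overlapping ranges in the 4 groups. Hepatocyte markers had array means of 14.16 to 14.51. Stellate cell and fibroblast markers had array means of 6.27 to 6.64 in WT, 6.47 to 7.05 in Ager_null, 6.41 to 6.76 in Myd88_null and 6.53 to 6.92 in Ager_Myd88_null. Of the 7 that exceeded log2 4 on all arrays, 6 were higher in Ager_null than in WT, with a median of 0.55 against 0.02 for all tested genes, 0 called by limma and 2 at an unadjusted p under 0.05. In Ager_Myd88_null against Ager_null 5 of the 7 were lower, with a median of -0.13, and 5 of 7 interactions were negative, with a median of -0.23. Lpin1 had the same signs in these comparisons. In Ager_Myd88_null against WT and against Myd88_null the marker medians were 0.30 (6 of 7 higher) and 0.24 (4 of 7 higher). There Lpin1 had the opposite sign (-0.19 and -0.55). In Myd88_null against WT and Ager_null against Myd88_null the marker medians were 0.06 and 0.40, and Lpin1 was also higher (0.36 and 0.35). The part of these cells in the Lpin1 values was not tested. Col1a2, a collagen gene of stellate cells, exceeded log2 4 in 5 of 6 Ager_null livers (3.87 to 4.79) and in no liver of the other groups, where the highest level was 3.81. It was tested only through the group in which it is high, so its levels are given as a description. Of the tested markers of hepatocytes (9), endothelium (8), neutrophils (2), bile ducts (1) and kidney (1), limma called 0 in any comparison, and at most 2 of a list had an unadjusted p under 0.05.

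Few members lie on the chromosome of a deleted gene. On chromosome 17, Lpin2 lies 820 annotated genes from Ager, and on chromosome 9, Me1 and Elovl5 lie 696 and 821 annotated genes from Myd88. Agpat1, an acyltransferase that is no member of the list, lies 2 annotated genes from Ager, and its group means were low, between 2.86 and 3.15.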

How the data were processed

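RNA from 19 livers was measured on Affymetrix arrays, and per the labels' protocols it was amplified and biotin-labelled for 3′ arrays. The deposited values are log2 expression per probe set, made with GCRMA 2.16 per the submitters' processing notes. They were used as given, with array medians of 2.748 to 2.829. Filters and normalization details beyond this are not stated in those notes. Of 45101 probe sets, 64 controls, 932 with several symbols and 9160 not listed were left out. Groups come from the sample titles. The protocol speaks of RNA per mouse, so each array was taken as 1 animal.

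limma 3.58.1 (R 4.3.3; lmFit, eBayes) compared the 4 groups in 1 fit over 8515 genes above log2 4 on at least 4 arrays. Tests were two-sided, adjusted by Benjamini-Hochberg over all genes, and called at an adjusted p under 0.05. Errors are SE of differences and SD of levels. The fit was tested on simulated data with independent noise per gene. Those data had no S range effect and no outlying array, so they do not check the calls against either. Replicate numbers come from the titles. Deviations of same-numbered arrays from their group means correlated at over 0.1 in 4 of 4 pairs of Ager_null with Myd88_null (r from 0.109 to 0.471), in 2 of 4 of WT with Myd88_null (0.046 to 0.305), and in 9 of 25 pairs in all (-0.302 to 0.471). The criterion of over 0.1 in every pair was met by Ager_null with Myd88_null alone. Arrays with different numbers were not compared in this way, so these values do not establish that any livers were paired. Array number limits precision, and no depth applies. All 32 members are named. From the other lists, genes that passed are named, together with Insig1, Insig2, Nr1h3 and Pklr and list genes next to Ager or Myd88; another gene of that rule is not reported here. The members and lists, including markers of hepatocytes, Kupffer cells, neutrophils, endothelium, stellate cells, bile ducts, fat and kidney, were chosen with earlier results of these data known. Promoter sequences and gene order come from RefSeq (GRCm38.p6).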

Additional observations from a re-analysis of the deposited data

Results flagged for a closer look

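In 9 of 108 groups of arrays, 1 array stood far from the others of its genotype for a member, where chance gives about 1 in 20. Among WT livers, Acss2 was 11.16 (log2) in WT 4 against 11.87 to 12.14, Fasn was 10.89 in WT 3 against 9.52 to 9.88, Acsl3 was 8.91 in WT 3 against 8.34 to 8.46, and Agpat3 was 10.66 in WT 5 against 10.19 to 10.23. Among Ager_null livers, Elovl6 was 10.95 in Ager_null 6 against 10.01 to 10.34, and Fads2 was 11.45 in Ager_null 3 against 11.02 to 11.17. Fasn was 9.64 in Myd88_null 1 against 10.99 to 11.23 in the other Myd88_null livers. Among Ager_Myd88_null livers, Dgat1 was 7.58 in replicate 2 against 8.21 to 8.31, and Srebf1 was 8.84 in replicate 1 against 9.62 to 9.76.

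For Lpin1 the effect of losing Myd88 was tested for a difference between livers with and without Ager, and the interaction of -1.26 passed (limma adjusted p = 0.0444). The call was lost with the S range as a block (adjusted p = 0.225), with the replicate number as a block (adjusted p = 0.0612), without a filter on low values (adjusted p = 0.0654) and in 14 of 19 fits that left out 1 array.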

How the results depend on the processing

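Lpin1 kept its sign in every alternative run. Its difference between Ager_Myd88_null and Ager_null passed in 9 of 11 other settings and its interaction in 7 of 10. Without a filter on low values the difference was -0.90 (adjusted p = 0.0553) and the interaction -1.26 (adjusted p = 0.0654), and blocking on the S range gave -0.85 (adjusted p = 0.253) and -1.25 (adjusted p = 0.225). With 1 array left out they ran from -0.99 to -0.81 and from -1.51 to -1.09, with adjusted p from 0.0149 to 0.157 and from 0.00338 to 0.109. The difference lost its call without WT 1, Ager_null 1, 2, 3, 4 or 6, Myd88_null 2 or any 1 Ager_Myd88_null array. The interaction lost it without WT 1, 2 or 5, Ager_null 2, 3, 4, 5 or 6, Myd88_null 2, 3 or 4, or Ager_Myd88_null 2, 3 or 4. With the replicate number as a block the interaction of Lpin1 was -1.22 (adjusted p = 0.0612), 0 members passed for the interaction, and the difference still passed (-0.94, adjusted p = 0.0492). The block also ended the calls of the Irs2 and Rxra interactions (adjusted p = 0.0612 and 0.0627), and changed no other call of a member or named gene.

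Members that passed changed in number as follows. limma array weights gave 2 for Ager_null against WT, 4 for Myd88_null against WT, 1 for Ager_Myd88_null against Myd88_null, 2 for Ager_null against Myd88_null and 8 for the interaction. Among Myd88_null arrays the weight was 3.244 for replicate 2, against 0.489 for replicate 1 and 0.318 for replicate 4. With these weights Acsl5 passed for the interaction at an unadjusted limma p of 0.00662 (adjusted p = 0.0453). More than the main fit's 2.41% of all tested genes must therefore have passed there. The S range block gave 0 for Ager_Myd88_null against Ager_null, 1 for Ager_null against Myd88_null and 0 for the interaction. Of 8515 tested genes 120, 386 and 0 passed in these 3 comparisons with that block. No filter gave 0 for Ager_Myd88_null against Ager_null and 0 for the interaction, and median centring gave 1 for Ager_null against Myd88_null. Leaving out 1 array gave 0 to 1 for Ager_null against WT, 0 to 4 for Myd88_null against WT, 0 to 0 for Ager_Myd88_null against WT, 0 to 1 for Ager_Myd88_null against Ager_null, 0 to 3 for Ager_Myd88_null against Myd88_null, 0 to 1 for Ager_null against Myd88_null and 0 to 7 for the interaction. The highest of these counts came without Myd88_null 1 for Myd88_null against WT, for Ager_Myd88_null against Myd88_null and for the interaction, and without Ager_null 6 for Ager_null against Myd88_null. Fitting only the groups compared cannot be done for the interaction. The cause of these changes was not tested. Exact shares of all tested genes that passed were not worked out for array weights or for fits without 1 array. Those counts therefore have no background beside them.

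Member medians moved by at most 0.13 in 28 values under other scalings, filters or probe set rules. Alternatives for genes of the other lists were added after the data were seen.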
